A study of Sus scrofa with 40 samples.

Results

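FOS, JUN, ATF3 and their relatives are the subunits of activator protein 1 (AP-1), and they were followed here over porcine kidneys exposed to warm ischemia and cold storage. The members sought were FOS, FOSB, FOSL1, FOSL2, JUN, JUNB, JUND, ATF3, BATF and MAFF, 10 genes in all. An array row was taken where its gene name was one of these symbols or its description gave the symbol in brackets. Rows for 4 genes met this rule, FOS, JUN, FOSL2 and MAFF, as 6 array identifiers read by 8 probes, out of 35955 identifiers on the array. FOSB, FOSL1, JUNB, JUND, ATF3 and BATF gave no row under the rule and are not analysed here. One further row, described in words as a FOSB protein and therefore outside the rule, is described separately and is counted nowhere among the members.

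All kidneys came from Large White pigs aged 3 months, and samples of cortex (C) and of corticomedullary junction (CMJ) gave 8 groups with 5 arrays each, 40 arrays in total. Control kidneys (Ctl) were frozen directly after removal. Kidneys of the warm ischemia group (WI) stayed clamped for 60 min at 37 °C before sampling. Kidneys that were cold-stored (WI+CS6h and WI+CS24h) had the same 60 min at 37 °C, then a flush with cold University of Wisconsin solution and storage at 4 °C, and by the labels samples were taken at 6 h and again at 24 h from the same 5 kidneys, while the study's methods list the 2 times as separate groups of 5. No group used here had cold storage without warm ischemia. The kidney is the replicate, and by the labels 15 kidneys stand behind the 40 arrays. Whether a cortex and a CMJ sample with 1 number came from 1 kidney is not given in the sources used here.

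AP-1 is a pair of basic leucine zipper proteins that binds DNA as a dimer, with JUN proteins pairing among themselves or with FOS and ATF relatives. FOS and JUN are immediate early genes: their transcription starts from factors already present in the cell, such as SRF and MAP kinase substrates, and their mRNAs are short lived. In kidney, FOS and JUN mRNA are known as early responders to ischemia. The arrays measured mRNA in whole biopsies, in which fewer cells of a type and less RNA per cell cannot be told apart.

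A FOS and a JUN probe are printed first, because both genes were read by more than 1 identifier. The probe says which stretch of the mRNA was read. Each sequence is the 60-base oligonucleotide of the array, 5′ to 3′, with its start in the transcript as the array files give it. The FOSB probe is shown because that row was identified from words in its description alone.
FOS, NM_001123113, start 769: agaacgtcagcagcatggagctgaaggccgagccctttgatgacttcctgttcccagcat
JUN, NM_213880, start 1114: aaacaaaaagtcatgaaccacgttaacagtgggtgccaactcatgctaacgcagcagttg
FOSB protein row, NP276701, start 224: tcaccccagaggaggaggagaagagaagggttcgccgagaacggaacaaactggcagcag
The other FOS identifier, ENSSSCT00000002650, was read by 3 probes starting at bases 1741, 1871 and 1892, and the last 2 of these share a run of 21 bases, so they are not independent readings of the mRNA. The other JUN identifier, ENSSSCT00000036290, was read by 1 probe that starts at base 879. The probes of these 2 identifiers are not printed, though most FOS values below and the JUN calls in cortex come from them.

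FOS mRNA was higher in every ischemic group than in control, in both tissues. In cortex it rose in steps, first with warm ischemia and again with cold storage, and in CMJ its level with warm ischemia alone was close to that in stored kidneys. The effect of warm ischemia was not called as different between the tissues (limma adjusted p = 1 on both FOS rows), and the step from WI to storage was not compared between them. Values are normalized log2 signals, on which a difference of 1 is a doubling, and levels are compared only within a row. On ENSSSCT00000002650 the 5 Ctl-C arrays read 9.75, 9.45, 9.81, 9.12 and 10.13. The 5 WI-C arrays read 10.97, 10.85, 11.06, 10.92 and 10.79. All WI-C arrays lay above all Ctl-C arrays, and their own spread was small.

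**Figure D1:**
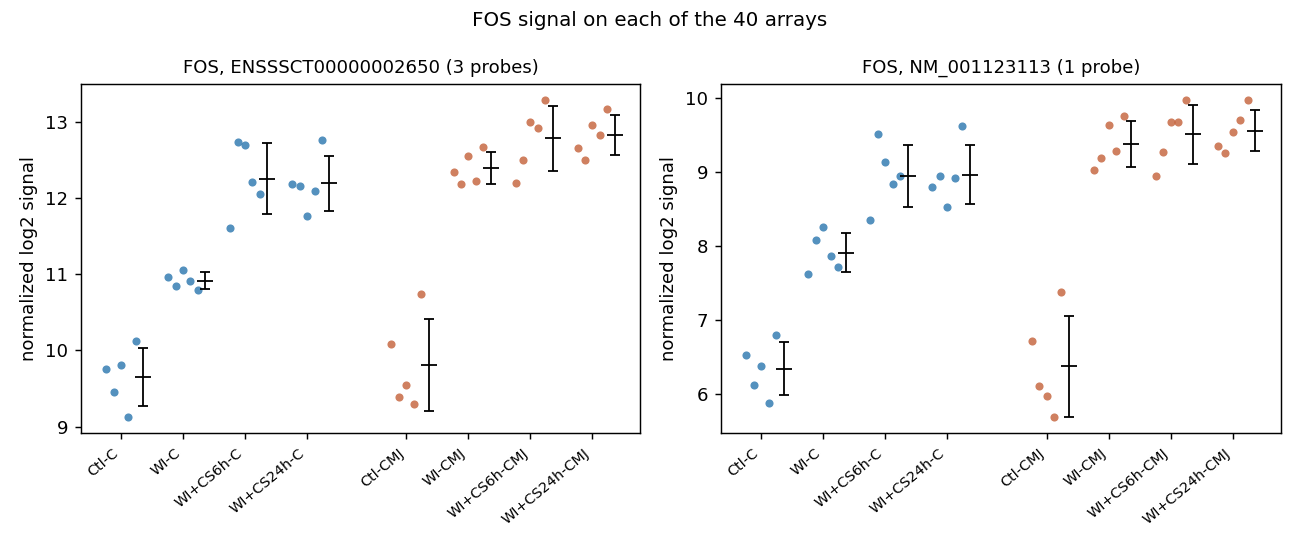
FOS signal (normalized log2, vertical axis) on each array of the 8 groups for the 3-probe and the 1-probe identifier; dots are arrays in replicate order, blue for cortex and orange for CMJ, and bars are mean and SD (n = 5). In cortex WI arrays sit between control and stored arrays, while in CMJ the mean of the WI arrays on the 3-probe identifier lies 0.39 and 0.43 log2 below the stored means. On that identifier the dot of WI+CS6h-C replicate 3 lacks the dimmest probe.

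In stored cortex the same row read 11.61, 12.74, 12.70, 12.21 and 12.06 at 6 h and 12.19, 12.16, 11.77, 12.10 and 12.77 at 24 h. The 12.70 of replicate 3 is the mean of 2 probes (12.79 and 12.61). The spot of the dimmest probe, with start 1741, was removed on that array, so 12.70 is too high beside the other arrays. Each stored array was above each WI-C array. In CMJ the control arrays read 10.09, 9.39, 9.55, 9.29 and 10.74, and the WI-CMJ arrays read 12.35, 12.19, 12.56, 12.23 and 12.67. Stored CMJ read 12.20, 12.51, 13, 12.93 and 13.30 at 6 h and 12.66, 12.50, 12.97, 12.84 and 13.18 at 24 h. The WI-CMJ arrays overlapped both stored sets, and all 3 lay wholly above control.

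In cortex, warm ischemia alone raised FOS 2.41-fold on ENSSSCT00000002650 (log2 fold change 1.27 ± 0.22 SE, limma adjusted p = 0.0223) and 2.97-fold on NM_001123113 (1.57 ± 0.23, limma adjusted p = 0.00451). These were the 2 of 6 member rows called in WI-C versus Ctl-C, where 0.0278% of all 35939 rows were called higher, a call being an adjusted p under 0.05 and a log2 difference of 0.5 or more either way. ENSSSCT00000002650 ranked 19 among all rows by its log2 fold change there. The call on ENSSSCT00000002650 was lost when any array but Ctl-C replicate 5 or WI-C replicate 1 was left out (limma adjusted p 0.0509 to 0.0900, log2 fold change 1.14 to 1.31). With the slide as a term both FOS rows missed the threshold, at 1.00 (limma adjusted p = 0.127) and 1.34 (limma adjusted p = 0.0517). Within scan day 1 the log2 fold changes were 1.21 and 1.46, and within scan day 2 they were 1.25 and 1.64, none of them called. With normexp background correction both rows missed it as well, at 1.1 (limma adjusted p = 0.064) and 0.83 (limma adjusted p = 0.0835). With the replicate number as a block ENSSSCT00000002650 missed it too (1.27, limma adjusted p = 0.0745). That block joined control and WI samples by number, though these came from different kidneys, so it paired no kidneys here.

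With cold storage after warm ischemia, FOS in cortex was 6.12-fold above control at 6 h (log2 fold change 2.61 ± 0.22, limma adjusted p = 3.81e-06) and 5.85-fold at 24 h (2.55 ± 0.22, limma adjusted p = 4.25e-06) on ENSSSCT00000002650. The 6 h values of this row are raised by the spot removed on replicate 3. Its 3 probes had 6 h means of 12.67, 12.51 and 11.35 against 10.15, 10 and 8.8 in Ctl-C, each a difference below 2.61. NM_001123113 gave 2.62 ± 0.23 at both times, 6.13-fold and 6.15-fold, and 1.56 at both times with normexp background correction, still called. Within scan day 1 the former row gave 2.13 at 6 h and 2.38 at 24 h, and within scan day 2 it gave 2.93 and 2.71, the values of day 2 missing the threshold (limma adjusted p = 0.0709 and 0.187).

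The second step of FOS in cortex, stored against warm ischemia, was 2.54-fold at 6 h (1.34 ± 0.22, limma adjusted p = 0.00311) and 2.43-fold at 24 h (1.28 ± 0.22, limma adjusted p = 0.00519) on ENSSSCT00000002650, and 2.06-fold and 2.07-fold on NM_001123113 (limma adjusted p = 0.0190 and 0.0230). These 2 of 6 member rows were called at each time, against 1% of all rows called higher at 6 h and 0.637% at 24 h. On NM_001123113 the 6 h call was lost without WI-C replicate 5 (log2 fold change 1.00, limma adjusted p = 0.0525). Its 24 h call was lost without WI-C replicate 1 (0.98), 4 (1.04) or 5 (1.00) or WI+CS24h-C replicate 5 (0.88), at limma adjusted p 0.0511 to 0.0681. Fitted on the compared groups alone, NM_001123113 missed the threshold at both times (limma adjusted p = 0.0832 and 0.06). Within single scan days the 2 rows gave 0.68 to 1.68 at 6 h and 0.97 to 1.45 at 24 h, none called. On ENSSSCT00000002650 the 6 h step is raised by the spot removed on WI+CS6h-C replicate 3. Its 3 probes had means of 11.38, 11.2 and 10.18 in WI-C and 12.67, 12.51 and 11.35 at 6 h, each a difference below 1.34.

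In CMJ, warm ischemia alone raised FOS 6.02-fold on ENSSSCT00000002650 (log2 fold change 2.59 ± 0.25, limma adjusted p = 2.33e-05) and 8.04-fold on NM_001123113 (3.01 ± 0.27, limma adjusted p = 1.35e-05). By size the former ranked 6 among 35938 rows. After storage the log2 fold changes against control were 2.98 ± 0.25 at 6 h and 3.02 ± 0.25 at 24 h on ENSSSCT00000002650, 7.87-fold and 8.11-fold. NM_001123113 gave 3.14 ± 0.27 and 3.19 ± 0.27. With normexp background correction its 3 values in CMJ were 1.86, 1.98 and 2.03, all called. Within scan day 2 all of these remained called, with 3.02 to 3.53 for the 2 rows over the 3 comparisons, and within scan day 1 they were 2.11 to 2.95 and not called. FOS did not pass the test between stored and WI-CMJ, where the log2 difference on ENSSSCT00000002650 was 0.39 at 6 h (95% interval -0.13 to 0.91) and 0.43 at 24 h (-0.09 to 0.95). Of the 6 member rows limma called 0 higher at each time, and 0 had an unadjusted p under 0.05, against 1.37% of all rows called higher at 6 h and 1.24% at 24 h.

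The tissues were compared through the difference of their effects. For warm ischemia alone the FOS effect was larger in CMJ than in cortex by 1.32 log2 on ENSSSCT00000002650 (95% interval 0.64 to 2.00) and by 1.44 on NM_001123113 (0.71 to 2.16). All 5 WI-CMJ arrays (12.19 to 12.67) lay above all 5 WI-C arrays (10.79 to 11.06) on ENSSSCT00000002650, while control arrays of both tissues overlapped (Ctl-CMJ minus Ctl-C 0.16, 95% interval -0.32 to 0.64). The unadjusted p of the 2 differences was 0.000398 and 0.000321, but after adjustment over all 35934 rows limma gave an adjusted p of 1 for both, so neither was called, and 0% of all rows were. Of the 6 member rows 3 had an unadjusted p under 0.05 there, both FOS rows and ENSSSCT00000036290 of JUN. With the slide as a term the differences were 1.69 and 1.79. Within scan day 1 they were 0.90 and 1.03, and within scan day 2 they were 1.77 and 1.89. After storage the differences were smaller, 0.36 at 6 h (-0.32 to 1.05) and 0.47 at 24 h (-0.21 to 1.15) on ENSSSCT00000002650. The 6 h value is lowered by the spot removed on WI+CS6h-C replicate 3.

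The 3 probes of ENSSSCT00000002650 gave WI-C log2 fold changes of 1.22, 1.20 and 1.38 for the starts 1871, 1892 and 1741, and 2.51, 2.48 and 2.77 in WI-CMJ. Each of the 3 was called in both (limma fit per probe, adjusted p 0.0196 to 0.0201 in cortex and 2.22e-05 to 3.63e-05 in CMJ). Over the 40 arrays the 2 FOS identifiers correlated at 0.99, and at 0.94 after group means were subtracted. These are readings of the same RNA samples, not replicates of a condition.

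JUN, the usual partner of FOS in the AP-1 dimer, moved less than FOS, and its 2 identifiers differed in size. In CMJ both identifiers rose in all 3 ischemic groups. On NM_213880 the Ctl-CMJ arrays read 13.02, 12.74, 12.83, 12.84 and 13.38, and the WI-CMJ arrays read 13.77, 13.76, 13.79, 13.70 and 13.84. The WI-CMJ arrays were nearly level with each other and all above control. On ENSSSCT00000036290 the Ctl-CMJ arrays read 7.85, 7.52, 7.47, 7.52 and 8.00 and the WI-CMJ arrays read 8.74, 9.28, 9.37, 9.28 and 9.56, again with no overlap.

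**Figure D2:**
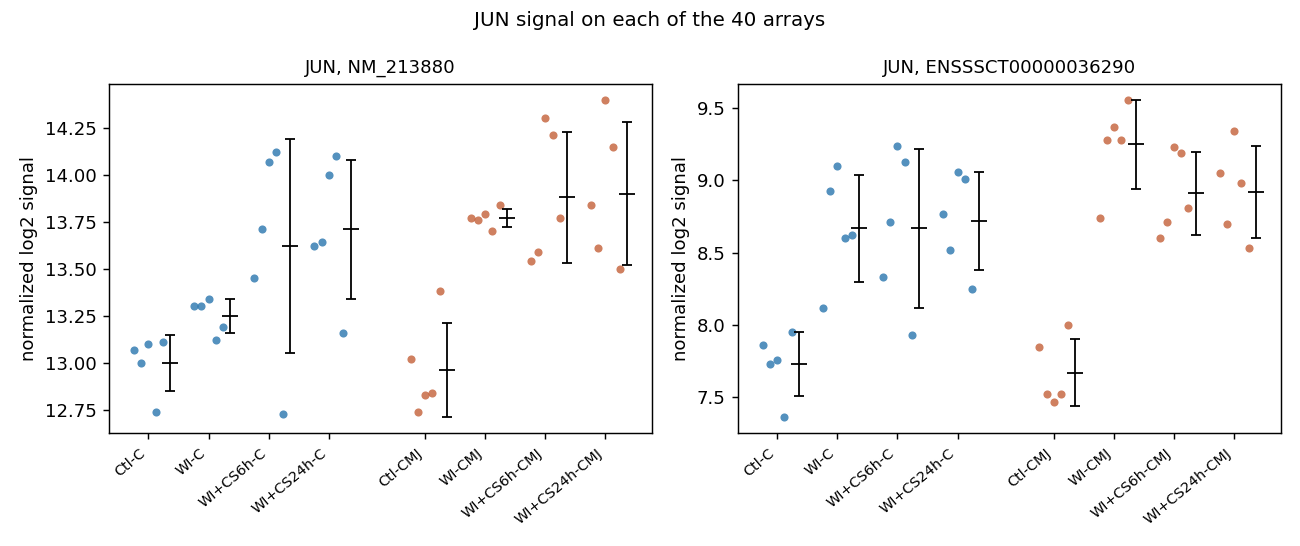
JUN signal (normalized log2, vertical axis) on each array of the 8 groups for the 2 identifiers; dots are arrays in replicate order, blue for cortex and orange for CMJ, and bars are mean and SD (n = 5). WI arrays of CMJ lie wholly above control arrays on both identifiers, and stored cortex on NM_213880 spreads from 12.73 to 14.12 at 6 h.

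In WI-CMJ versus Ctl-CMJ, JUN was 1.75-fold higher on NM_213880 (log2 fold change 0.81 ± 0.18, limma adjusted p = 0.0399) and 2.98-fold higher on ENSSSCT00000036290 (1.57 ± 0.18, limma adjusted p = 0.000184). With FOS, 4 of 6 member rows were called higher there, against 0.37% of all rows, and the arrays of the same 4 rows did not overlap, against 1.49% of all rows. The NM_213880 call was lost without any array but Ctl-CMJ replicate 5 or WI-CMJ replicate 1 (limma adjusted p 0.0673 to 0.121, log2 fold change 0.76 to 0.83), and with the slide as a term (0.85, limma adjusted p = 0.169). Within scan day 1 JUN gave 0.64 and 1.36 on the 2 rows, neither called, and within scan day 2 it gave 0.95, not called, and 1.84, called.

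In stored CMJ, JUN was 1.89-fold (0.92 ± 0.18, limma adjusted p = 0.00535) and 1.92-fold (0.94 ± 0.18, limma adjusted p = 0.0041) above control at 6 h and 24 h on NM_213880. ENSSSCT00000036290 was 2.35-fold and 2.38-fold above control (1.23 ± 0.18 and 1.25 ± 0.18). At each time 4 of 6 member rows were called higher, against 1.35% of all rows at 6 h and 1.35% at 24 h. The stored NM_213880 arrays read 13.54, 13.59, 14.30, 14.21 and 13.77 at 6 h and 13.84, 13.61, 14.40, 14.15 and 13.50 at 24 h, all above the control arrays. Within scan day 1 the 2 rows gave 0.58 and 1.02 at 6 h and 0.73 and 1.12 at 24 h, none called. Within scan day 2 they gave 1.15 and 1.38 at 6 h and 1.13 and 1.38 at 24 h, with all but the 24 h value of NM_213880 called.

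In cortex the JUN identifiers differed in their calls. On ENSSSCT00000036290 the Ctl-C arrays read 7.86, 7.73, 7.76, 7.36 and 7.95, and the WI-C arrays read 8.12, 8.93, 9.10, 8.60 and 8.62, without overlap. The log2 fold change was 0.94 ± 0.24, which did not pass (limma adjusted p = 0.366). After storage this row was 1.91-fold above control at 6 h (0.93 ± 0.24, limma adjusted p = 0.0307) and 1.98-fold at 24 h (0.99 ± 0.24, limma adjusted p = 0.0300). NM_213880 gave 0.25 ± 0.21 with warm ischemia (limma adjusted p = 1), 0.61 ± 0.21 at 6 h (limma adjusted p = 0.109) and 0.70 ± 0.21 at 24 h (limma adjusted p = 0.0925), none called. With 75th-percentile scaling NM_213880 was called at both times (0.80, limma adjusted p = 0.0318, and 0.84, limma adjusted p = 0.0327). As normalized here, 3 of 6 member rows were called in each stored cortex comparison, against 1.63% of all rows called higher at 6 h and 1.04% at 24 h.

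JUN spread most between arrays in WI+CS6h-C, with an SD of 0.57 on NM_213880. The stored cortex arrays read 13.45, 13.71, 14.07, 14.12 and 12.73 at 6 h and 13.62, 13.64, 14, 14.1 and 13.16 at 24 h. Replicate 5 was the lowest at both times, at 12.73 just below and at 13.16 just above the control range of 12.74 to 13.11, and on ENSSSCT00000036290 it was the lowest of its group too, at 7.93 and 8.25. Without WI+CS6h-C replicate 5, and likewise without WI+CS24h-C replicate 5, 4 in place of 3 member rows were called in the comparison with Ctl-C. The ENSSSCT00000036290 call at 6 h was lost without Ctl-C replicate 1, 2, 3 or 4 or WI+CS6h-C replicate 3 (limma adjusted p 0.0603 to 0.0836, log2 fold change 0.79 to 0.97), with normexp background correction (0.62, limma adjusted p = 0.0551) and in a fit of the 2 groups alone (0.93, limma adjusted p = 0.0973). The 24 h call was lost without the same control arrays or WI+CS24h-C replicate 1, 3 or 4 (limma adjusted p 0.0589 to 0.0818, log2 fold change 0.90 to 1.02). Within scan days that row gave 0.92 and 0.95 at 6 h and 0.95 and 0.98 at 24 h, none called.

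JUN did not pass the test between stored and warm ischemic kidneys in either tissue. On ENSSSCT00000036290 the stored groups were at -0.01 (95% interval -0.51 to 0.49) and 0.05 (-0.45 to 0.55) relative to WI-C, and at -0.34 (-0.71 to 0.03) and -0.33 (-0.70 to 0.05) relative to WI-CMJ. NM_213880 gave 0.36 (-0.09 to 0.82) and 0.45 (0.00 to 0.90) in cortex. The tissue difference of the warm ischemia effect was 0.56 on NM_213880 (-0.01 to 1.14) and 0.63 on ENSSSCT00000036290 (0.02 to 1.25), with limma adjusted p = 1 for both. The 2 JUN identifiers correlated at 0.87 over the 40 arrays and at 0.84 within groups.

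FOSL2, the FOS-related antigen 2 of the same family, was not called in any comparison. On AK236053 the Ctl-C arrays read 10.47, 10.38, 10.62, 10.22 and 10.39, and the WI-C arrays read 10.72, 10.10, 10.51, 10.68 and 10.10, which overlapped. Its log2 fold changes against control in cortex were 0.01 (95% interval -0.41 to 0.42), 0.34 (-0.08 to 0.75) and 0.36 (-0.06 to 0.77) for WI, WI+CS6h and WI+CS24h. In CMJ they were -0.03 (-0.45 to 0.39), 0.05 (-0.37 to 0.46) and 0.09 (-0.33 to 0.51).

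MAFF, a small MAF protein without an activation domain of its own, was dim and not called either. Its row was well above background on 3 to 5 of the 5 arrays of each group. Group means ran from 2.64 ± 0.50 in WI+CS6h-CMJ to 3.17 ± 0.24 in WI-CMJ (SD, n = 5). Its largest log2 fold change against control was 0.50 in WI-CMJ (95% interval -0.04 to 1.03, limma adjusted p = 0.459), and the intervals of the other 5 comparisons with control included 0.

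**Figure D3:**
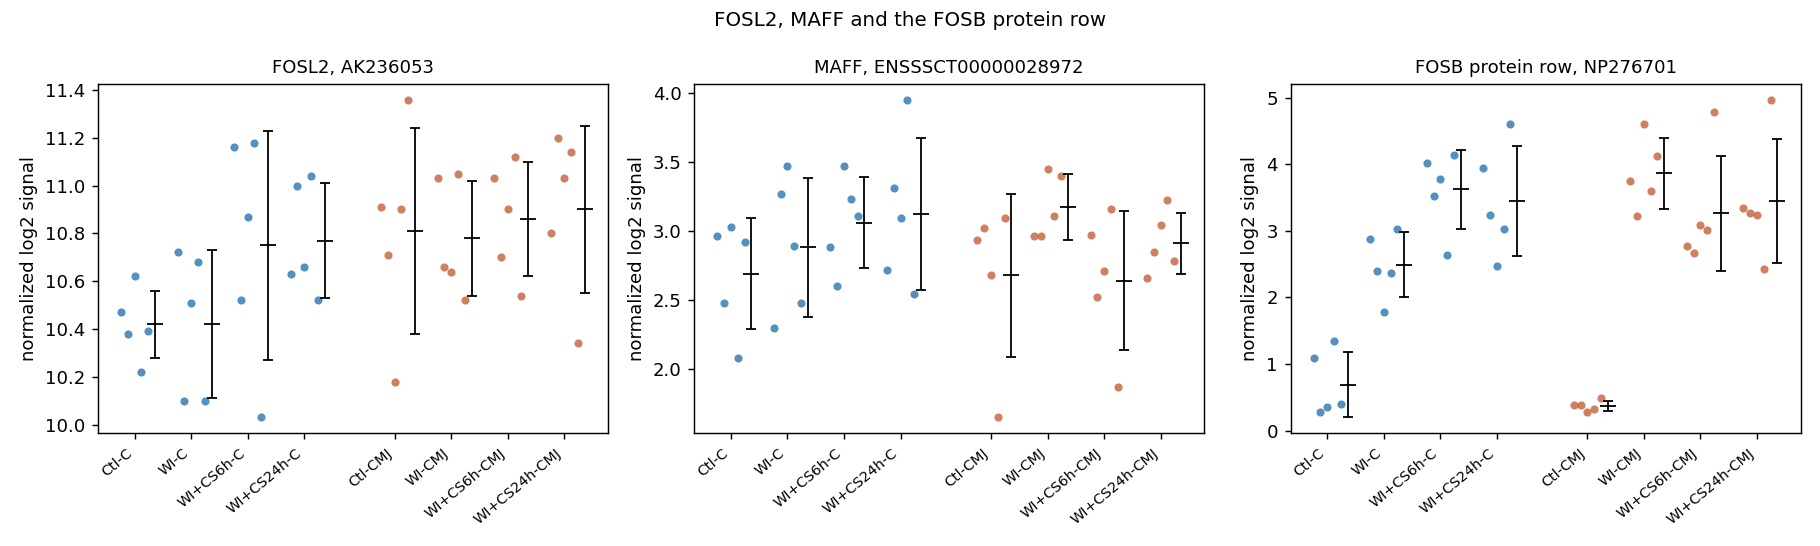
Normalized log2 signal (vertical axis) on each array of the 8 groups for FOSL2, MAFF and the row described as FOSB protein; dots are arrays in replicate order, blue for cortex and orange for CMJ, and bars are mean and SD (n = 5). FOSL2 and MAFF groups overlap, and the control arrays of the FOSB row were not well above background.

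The row described as FOSB protein, NP276701, was not well above background on any of the 10 control arrays and was so on most arrays of the ischemic groups. FOSB is a FOS paralog and an immediate early gene. The Ctl-CMJ arrays read 0.38, 0.39, 0.28, 0.32 and 0.49, and the WI-CMJ arrays read 3.75, 3.22, 4.61, 3.59 and 4.12, all 5 of them well above background. Because control was below detection, the changes are bounds, from the mean of the brighter group against each control array's lowest well-detected signal. They were at least 2.93-fold in WI-CMJ (limma adjusted p = 0.000386), at least 1.94-fold in WI+CS6h-CMJ (limma adjusted p = 0.000484) and at least 2.21-fold in WI+CS24h-CMJ (limma adjusted p = 0.000266). In cortex they were at least 2.73-fold at 6 h (limma adjusted p = 0.000251) and at least 2.44-fold at 24 h (limma adjusted p = 0.00047), and WI-C, with 2 of 5 arrays well above background, did not pass (at least 1.25-fold, limma adjusted p = 0.107). This row was picked out after its values were seen, and which other transcripts its probe can bind was not tested.

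No member passed the test between 24 h and 6 h of cold storage. Between 24 h and 6 h limma called 0 of 6 member rows in cortex and 0 in CMJ, 0 of them at an unadjusted p under 0.05, where 0% of all rows were called in cortex and 0.00278% in CMJ. With quantile normalization within each group 1152 of all rows were called in cortex and 352 in CMJ, and again 0 of 6 member rows. FOS differed by -0.06 (95% interval -0.52 to 0.40) in cortex and by 0.04 (-0.48 to 0.56) in CMJ on ENSSSCT00000002650, and JUN by 0.09 (-0.36 to 0.54) and 0.02 (-0.36 to 0.39) on NM_213880. The -0.06 of FOS is lowered by the spot removed on WI+CS6h-C replicate 3. The 3 probes of that row had means of 12.67, 12.51 and 11.35 at 6 h and 12.67, 12.53 and 11.41 at 24 h. Taken by replicate number, the 24 h minus 6 h difference of FOS in cortex was 0.58, -0.58, -0.93, -0.11 and 0.71, so single kidneys, if the numbers match, went either way. In CMJ the differences were 0.46, -0.01, -0.03, -0.08 and -0.12, with 1 of 5 higher at 24 h. In cortex the -0.93 of replicate 3 is made larger by the spot removed at 6 h. The probes with starts 1871 and 1892, read at both times, went from 12.79 and 12.61 to 12.28 and 12.12 there.

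**Figure D4:**
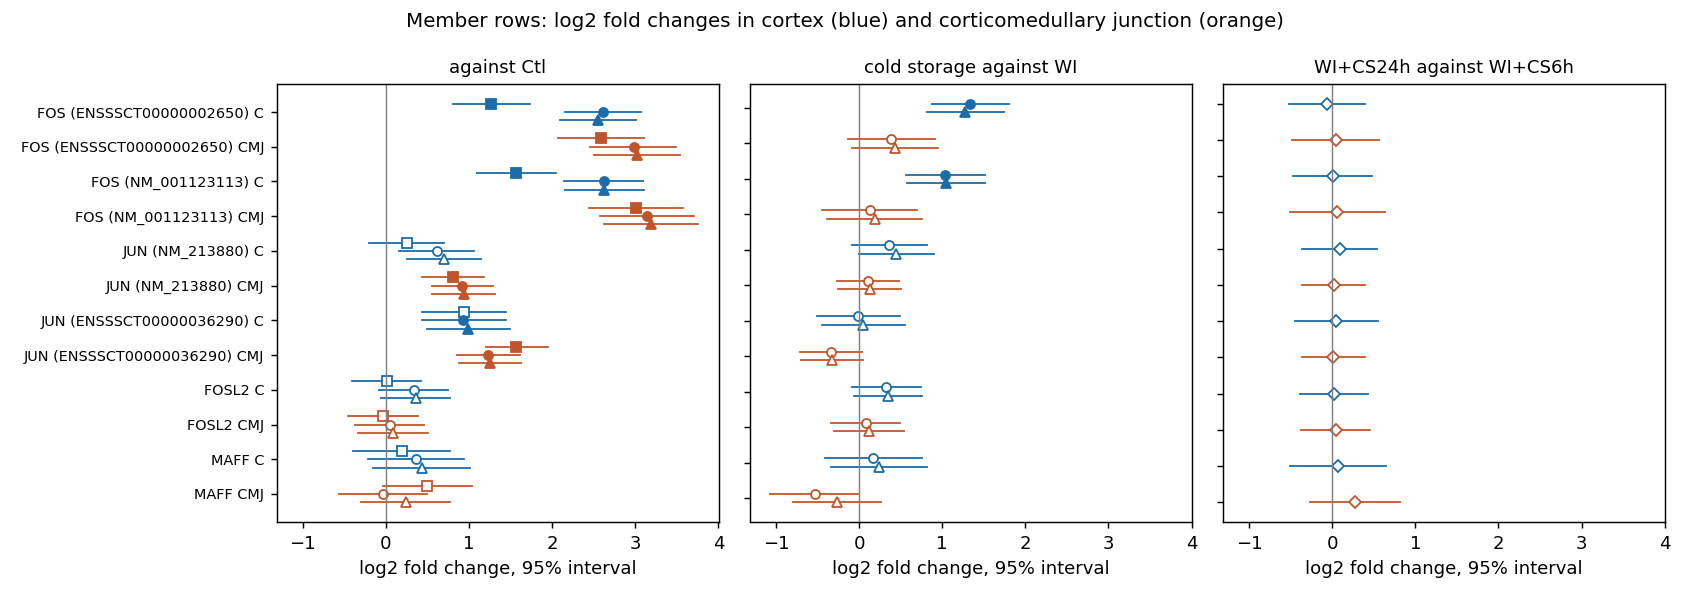
Log2 fold change (horizontal axis) with its 95% interval for the 6 member rows in cortex (blue) and CMJ (orange), against control (square WI, circle WI+CS6h, triangle WI+CS24h), against WI (circle 6 h, triangle 24 h) and at 24 h against 6 h; filled symbols were called. FOS is called in all 6 comparisons with control, and stored against WI only in cortex, while all intervals of 24 h against 6 h include 0.

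The overlap of arrays was also counted over the 6 member rows. In cortex all WI arrays lay above all control arrays in 4 rows, against 0.682% of all rows. The stored cortex arrays did so in 2 rows at 6 h and 4 rows at 24 h, against 2.61% and 2.77% of all rows. In stored CMJ it was 4 rows at each time, against 2.68% of all rows at 6 h and 2.22% at 24 h. In WI-C the JUN row NM_213880 was counted by 13.12 on its lowest array against 13.11 on the highest Ctl-C array. All counted rows were of FOS or JUN.

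Control tissues were compared as well. Between Ctl-CMJ and Ctl-C limma called 0 of 6 member rows, 0 of them at an unadjusted p under 0.05, against 0.312% of all rows. The tissue labels were checked on control arrays. SLC12A1, the salt transporter of the thick ascending limb, was 1.24 ± 0.25 log2 higher in Ctl-CMJ than in Ctl-C (limma adjusted p = 0.0119). The other 2 markers of its list were not called, CLDN16 at 0.63 and CALB1 at -0.44. The mean over 5 proximal tubule markers was 12.96 in Ctl-C and 12.59 in Ctl-CMJ.

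Markers of other cells moved with some groups. The mean log2 signal over 5 fat cell markers ran from 4.31 to 4.89 in Ctl-CMJ and from 4.75 to 5.72 in WI-CMJ, and that over 3 fibroblast markers from 8.30 to 9.16 and from 8.48 to 10.16. The fat cell mean held only the brightest row of ADIPOQ, a fat cell hormone. Its dimmer rows averaged 0.59 and 0.65 in Ctl-CMJ and 4.36 (SD 3.56) and 4.06 (SD 3.38) in WI-CMJ. They were well above background on 3 and 4 of 40 arrays. The row of HBB, the beta globin of red cells, ran from 0.29 to 2.85 in Ctl-C and from 3.56 to 4.61 in WI-C. Of 32 markers of 9 cell types limma called 0 in WI-C and 0 in WI-CMJ against control, with 3 and 6 at an unadjusted p under 0.05. In stored kidneys SCNN1G, a collecting duct sodium channel subunit, was called higher at 6 h in cortex (0.65) and at both times in CMJ (0.66 and 0.85). The other 2 collecting duct markers, AQP2 (-0.43 and -0.28) and AQP3 (-0.49 at both times), were lower there but not called, and the list's median was -0.43 and -0.28. KDR, an endothelial receptor, was called higher at both times in CMJ (0.59 and 0.65), and SLC22A8, a proximal tubule transporter, at 6 h in CMJ (0.79). Stored cortex was set against WI-C in the same way, where FOS made its second step. The mean over 3 loop of Henle and distal tubule markers ran from 9.58 to 9.97 in WI-C, from 10.09 to 10.31 at 6 h and from 10.05 to 10.36 at 24 h, so the stored arrays lay wholly above WI-C, and none of the 3 was called. Of the 32 markers 1 was called there at each time, AQP3, lower by a log2 difference of -0.63 and -0.65. Of all rows 1.93% at 6 h and 1.2% at 24 h were called there either way. SCNN1G of the same list went up, with means of 10.43 in WI-C, 11.08 at 6 h and 11.06 at 24 h, not called. The list's median against WI-C was -0.26 at 6 h and -0.09 at 24 h. HBB, well above background on 24 of 40 arrays, differed by -2.01 and -1.27, not called. The part of these markers in the FOS and JUN results was not tested. The share of spots well above background was 57.0% to 69.9% per array, with group means between 62.5% and 66.9%.

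The other genes around AP-1 were taken as lists and counted by their brightest row. Of 19 other immediate early genes, 15 were measured. Against control in cortex, 1 was called higher and 1 lower with warm ischemia, and 6 higher at each storage time. In CMJ 3 were called higher and 1 lower with warm ischemia, 3 higher at 6 h and 5 higher at 24 h. Of all rows, 0.0278% were called higher and 0.0668% lower in WI-C, 1.63% and 1.04% higher in stored cortex, 0.37% higher and 0.317% lower in WI-CMJ, and 1.35% higher at each time in stored CMJ. EGR1 was the gene higher in WI-C, and IER3, an early gene of cell survival, was the gene lower in both WI groups (-0.95 and -0.90). KLF4 and KLF6, zinc finger factors, were called with EGR1, NR4A2, CYR61 and BTG2 in both stored cortex groups. IER3, KLF4 and KLF6 are named after their values were seen. The list's median log2 fold change was 0.14 in WI-C, 0.53 after 6 h of storage in cortex and 0.46 after 24 h. The CMJ medians were 0.41 with warm ischemia alone, 0.33 at 6 h and 0.58 at 24 h. Over all rows the median was 0.047 in WI+CS6h-C, against 0.004 for WI+CS24h-CMJ.

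EGR1, a zinc finger factor induced by the same upstream signals as FOS, had the step pattern of FOS. Its arrays read 3.38, 2.77, 2.92, 2.45 and 4.05 in Ctl-C, 4.17, 4.24, 4.76, 4.44 and 4.65 in WI-C, and 6.06, 5.51, 5.68, 5.59 and 5.74 in WI+CS6h-C. Cortex EGR1 stood 1.34 ± 0.24, 2.60 ± 0.24 and 2.48 ± 0.24 log2 above control for WI, WI+CS6h and WI+CS24h. The CMJ values were 2.34 ± 0.24 for WI and 2.36 ± 0.24 at both storage times, and limma called each of the 6. The WI-C call was lost without any array but Ctl-C replicate 5 or WI-C replicate 1 (limma adjusted p up to 0.123). Stored against WI it was 1.27 ± 0.24 and 1.14 ± 0.24 in cortex, both called, and 0.02 ± 0.24 at both times in CMJ, neither called. The 24 h cortex call was lost without WI+CS24h-C replicate 2 (1.04, limma adjusted p = 0.0567).

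NR4A2, an orphan nuclear receptor, rose with storage in both tissues and with warm ischemia alone in CMJ (1.47 ± 0.32, limma adjusted p = 0.0366), a call lost in 7 of 10 fits that left out 1 array. In WI-C it was 1.07 ± 0.35 and not called (limma adjusted p = 0.66), though all WI-C arrays (6.11 to 7.1) lay above all Ctl-C arrays (5.07 to 5.66). Its log2 fold changes were 2.89 ± 0.35 and 2.91 ± 0.35 in stored cortex and 2.65 ± 0.32 and 2.77 ± 0.32 in stored CMJ, and stored against WI it was called in both tissues too (1.82 and 1.84 in cortex, 1.18 and 1.30 in CMJ). Leaving out 1 array lost the CMJ call in 9 of 10 fits at 6 h, all but that without WI+CS6h-CMJ replicate 5 (limma adjusted p up to 0.109), and in 6 of 10 at 24 h (limma adjusted p up to 0.0713). These values are of NM_001190276. Replicate 5 was the lowest in all 4 stored groups on that row, at 6.92 and 7 in cortex and 6.85 and 6.7 in CMJ, while the other stored arrays lay between 7.97 and 8.78. The second NR4A2 row, AK346348, was well above background on only 18 of 40 arrays, and no size is given for it. BTG2, an antiproliferative early gene, was 1.67 ± 0.27 and 1.61 ± 0.27 above control in stored cortex and 1.30 ± 0.20, 1.86 ± 0.20 and 1.95 ± 0.20 in the 3 ischemic CMJ groups. CYR61, a matrix-associated signalling protein, was called in stored cortex only (1.59 ± 0.26 and 1.45 ± 0.26), with 1.14 ± 0.29 in WI-CMJ not called, and its tissue differences were not called either (-0.73 at 6 h and -0.56 at 24 h).

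**Figure D5:**
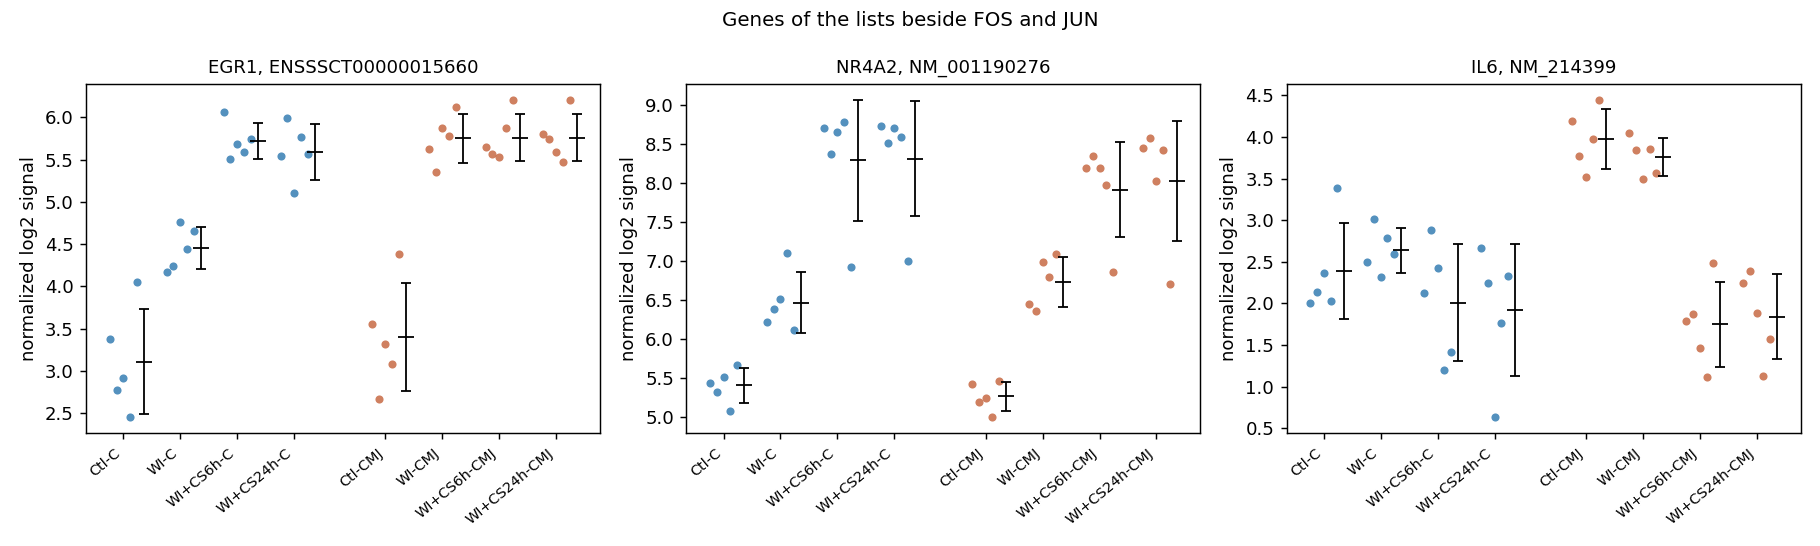
Normalized log2 signal (vertical axis) of EGR1, NR4A2 and IL6 on each array of the 8 groups; dots are arrays in replicate order, blue for cortex and orange for CMJ, and bars are mean and SD (n = 5). EGR1 follows the FOS steps in cortex, stored NR4A2 means lie 1.18 to 1.84 above WI, and IL6 in CMJ has a mean of 3.98 in control and 1.75 in WI+CS6h-CMJ.

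Known AP-1 target genes were called in both directions. Of 19 such genes 16 were measured, and in cortex none was called with warm ischemia, and 2 higher and 1 lower at each storage time. In CMJ 1 was called higher with warm ischemia, 3 higher and 2 lower at 6 h, and 2 higher and 2 lower at 24 h. The shares of all rows called higher are those given for the early genes, and 2.39% and 1.46% of all rows were called lower in cortex at 6 h and 24 h of storage, and 1.84% and 2.3% in CMJ. HMOX1, the heme-degrading enzyme, and HBEGF, an epidermal growth factor relative, were the called genes besides those described next, and are named after their values were seen. CCL2, a monocyte chemokine, was 2.79-fold higher in WI+CS6h-C (1.48 ± 0.22, limma adjusted p = 0.000987). CXCL8, a neutrophil chemokine, was 3.07-fold higher in WI-CMJ (1.62 ± 0.38, limma adjusted p = 0.0497) on NM_213867, and its other row, X61151, was not called there (0.75, limma adjusted p = 0.0589). NM_213867 was well above background on 3 of 5 control arrays, and its call was lost without any array but Ctl-CMJ replicate 3 or WI-CMJ replicate 2 (log2 fold change from 1.27, limma adjusted p up to 0.154). IL6, a cytokine, fell by 2.24 on the log2 scale in WI+CS6h-CMJ (± 0.25, limma adjusted p = 5.03e-05) and by 2.14 in WI+CS24h-CMJ. Its control arrays read 4.19, 3.77, 3.52, 3.98 and 4.45 there and its WI+CS6h-CMJ arrays read 1.79, 1.87, 1.46, 1.12 and 2.49, of which 3 were well above background. EDN1, the vasoconstrictor endothelin, fell by 1.53 (± 0.36, limma adjusted p = 0.0183) in WI+CS6h-CMJ and by 1.04 in WI+CS6h-C. It was well above background on all control arrays but on only 3 of 5 WI+CS6h-CMJ and 1 of 5 WI+CS6h-C arrays, so the size of these differences is uncertain. The WI+CS6h-CMJ call was lost without Ctl-CMJ replicate 4 or WI+CS6h-CMJ replicate 2 (limma adjusted p up to 0.0536) and the WI+CS6h-C call without Ctl-C replicate 4 (0.0507). At 24 h in CMJ (-1.34) it was lost without any array but Ctl-CMJ replicate 3 or WI+CS24h-CMJ replicate 3 (limma adjusted p up to 0.0897), and at 24 h in cortex (-1.07) without Ctl-C replicate 4 or WI+CS24h-C replicate 1 (limma adjusted p up to 0.0621).

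Lists of genes that act upstream of AP-1 or beside it were counted in the same way. Of 22 kinases and SRF factors 10 were measured, and the only call against control was MAP2K6, a p38 activator, in stored cortex (0.63 ± 0.15 at 6 h, limma adjusted p = 0.0198, and 0.57 at 24 h), 1 of 10 at each time against 1.63% and 1.04% of all rows called higher. Its values in stored CMJ were 0.58 (limma adjusted p = 0.109) and 0.64 (limma adjusted p = 0.0649), not called. The cortex call was lost in 4 of 10 fits that left out 1 array at 6 h and in 7 of 10 at 24 h, in the latter all but those without Ctl-C replicate 5 or WI+CS24h-C replicate 3 or 4 (limma adjusted p up to 0.116). Of 13 brakes on MAP kinase signalling and early mRNAs 4 were measured, DUSP6, ZFP36L1, ZFP36L2 and SPRY2. Limma called 0 of them against control in any group, with 0 at an unadjusted p under 0.05 in cortex and 1 to 2 in CMJ. The shares of all rows called in these comparisons are those given for the early genes and the AP-1 targets. Of 21 other leucine zipper factors 9 were measured, and 1 was called against control, DDIT3, the stress factor CHOP. Its brighter row was called in stored CMJ only (0.57 at 6 h and 0.63 at 24 h), with 0.42 and 0.46 in stored cortex not called. That made 1 of 9 factors called higher in CMJ at each time, against 1.35% of all rows. The dimmer DDIT3 row, NM_001144845, was called in all 4 stored comparisons with control (0.60 to 0.65). Its call at 24 h in cortex was lost without Ctl-C replicate 2 or 4 or WI+CS24h-C replicate 3 or 4 (limma adjusted p up to 0.0802).

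The genes whose signal was most like that of a member over the 40 arrays were found among 6694 rows with a symbol that were well above background on at least 20 arrays. For FOS they were EGR1 (Pearson r 0.952), PLK3 (0.916), BTG2 (0.867), CCL2 (0.863) and KLF4 (0.832). For JUN they were BTG2 (0.875), DDIT3 (0.852), RGS2 (0.842), HLX (0.833) and HBEGF (0.818). These r describe arrays that share kidneys and group differences. FOS and JUN themselves correlated at 0.80 on their brightest rows, and at 0.33 once group means were removed. FOSL2 and JUN, on NM_213880, correlated at 0.55 over the arrays and at 0.54 within groups.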

How the data were processed

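Total RNA of 40 kidney samples was labelled with Cy3 and hybridised to 1-colour Agilent porcine 44k arrays. The authors deposited scanner files, whose spot intensity values came from Agilent Feature Extraction 11.5.1.1 (background subtraction and detrending). They also deposited a matrix of log2 values, quantile normalized with limma in R 2.15.2 per the labels and the study's methods. Those methods state that this was done by condition, which is closer to the alternative within each group than to the main fits. Here log2 of the processed intensity of 43803 non-control spots was quantile normalized over all arrays after outlier spots were removed, and averaged by identifier. Depth does not apply to arrays, and 5 arrays per group limit the precision.

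Each tissue was fitted with limma 3.58.1 in R 4.3.3 on its 20 arrays, and tissue differences on all 40, with Benjamini-Hochberg adjustment over all rows. The cortex fit was tested on simulated data. A row was called at an adjusted p under 0.05 and a log2 difference of 0.5 or more either way. "Well above background" is the flag of Feature Extraction.

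All members were named, and per list at most 4 genes with the largest change among those called against control. Members, lists and tests were chosen with earlier results of these data known, so they are not independent support. Cell markers were the lists for proximal tubule, loop of Henle, collecting duct, podocyte, endothelium, fibroblast, leukocyte, erythrocyte and fat cells.

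Replicate numbers were checked as pairs. Deviations from group means correlated between WI+CS6h-CMJ and WI+CS24h-CMJ samples of 1 number at 0.332 or more, and between stored cortex and CMJ samples of 1 number at 0.134 or more at 6 h and 0.145 or more at 24 h. Between the 2 times in cortex the lowest was -0.311, and between control cortex and CMJ -0.13, and control and WI were different kidneys. Between WI-C and WI-CMJ all 5 were positive, but the lowest was 0.036 (mean 0.105, against -0.026 for other numbers). A lowest value over 0.1 was reached by the stored CMJ samples, by stored cortex with CMJ of the same time, and by WI+CS24h-C with WI+CS6h-CMJ (0.103). The best match had its own number in 5 of 5 stored CMJ samples. For stored cortex with CMJ it did so in only 3 of 5 at 6 h and 2 of 5 at 24 h. Whether the numbers pair cortex with CMJ samples, or the 2 times in cortex, is thus not settled. The reported fits had no block, and with it no member was called in the tissue differences or between 24 h and 6 h. Alternatives were other scaling, background correction, dim-row filter, brightest probe, the deposited matrix, replicate, slide or scan day as terms, single scan days, compared groups alone, and leaving out each array.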

Additional observations from a re-analysis of the deposited data

Results flagged for a closer look

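A single array stood apart from the other 4 of its group in 2 of 56 sets of 5 arrays, by a gap to its neighbour over 0.71 of the set's range. Chance alone marks about 5% of such sets. MAFF read 1.65 on Ctl-CMJ replicate 4, below the other control arrays (gap 0.715 of the range), and the row is dim. The FOSB protein row read 4.78 on WI+CS6h-CMJ replicate 5, above the other 4 arrays, which lay between 2.66 and 3.08 (gap 0.798 of the range). Replicate 5 was also the highest on this row in WI+CS6h-C (4.14), WI+CS24h-C (4.6) and WI+CS24h-CMJ (4.97).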

How the results depend on the processing

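No result reversed under any alternative. Member rows called in WI-C versus Ctl-C fell from 2 to 0 with normexp background correction, to 0 with the slide as a term and to 1 with the replicate block. In the fits of the compared groups alone, 1 in place of 2 was called in WI+CS6h-C versus WI-C and 1 in WI+CS24h-C versus WI-C. Within scan day 1, 0 were called in WI-C, in both stored cortex groups against WI-C, and in WI-CMJ, WI+CS6h-CMJ and WI+CS24h-CMJ against control. Within scan day 2, 0 were called in WI-C, WI+CS6h-C and WI+CS24h-C against control and in both stored cortex groups against WI-C. A single day holds 2 or 3 arrays of each group, so fewer samples entered these fits. The cause of the other changes was not tested.

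Within a tissue the replicate block joined samples of 1 number across treatments, though control, WI and stored samples came from different kidneys. With this block the FOS log2 fold change on ENSSSCT00000002650 in WI-C stayed at 1.27 (limma adjusted p = 0.0745), and it changed no other call of a member row. Among the other genes it lost the calls of EGR1 in WI-C, CXCL8 in WI-CMJ and NR4A2 in WI+CS6h-CMJ versus WI-CMJ. The tissue difference of FOS with warm ischemia had a limma adjusted p of 0.321 with the block.

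Leaving out 1 array at a time gave 1 to 2 called rows in WI-C, 2 to 4 in WI+CS6h-C, 2 to 4 in WI+CS24h-C, 1 to 2 in both stored cortex groups against WI-C, 3 to 4 in WI-CMJ, 4 in both stored CMJ groups and 0 in the other comparisons. Over the other alternatives 244 member values kept their direction and side of the threshold, and 44 kept the direction but lost the call. For the named genes of the lists and the FOSB row these were 452 and 186, and 502 and 78 with 1 array left out. With 1 array left out, member values gave 207 and 33. Single arrays were weak in dim rows: MAFF and the FOSB row were not well above background on all arrays.

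The counts of all rows called moved as well. With quantile normalization within each group they went from 34 to 107 in WI-C, from 1445 to 3062 in WI+CS6h-C and from 900 to 1440 in WI+CS24h-C against control. Between 24 h and 6 h they went from 0 to 1152 in cortex and from 1 to 352 in CMJ, and in the tissue differences from 0 to 1013 at 6 h and to 194 at 24 h, with 0 members called in each of these. With normexp background correction they fell to 11, 270 and 196 in the 3 cortex comparisons with control, and from 247, 1148 and 1313 to 33, 164 and 192 in those of CMJ. The slide as a term raised the count against control to 3568 in WI+CS6h-C and lowered it to 54 in WI-CMJ. With 75th-percentile scaling it was 110 in WI-CMJ.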
